A study of Mus musculus with 12 samples.

Results

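Genes of interferon sensing, interferon receptors, JAK-STAT signalling and interferon-stimulated defence were examined in mouse kidney. They were taken by name from a targeted panel: every endogenous gene whose symbol starts with Ifi, Ifn, Irf, Isg, Oas, Gbp, Stat or Jak, together with Mx1, Mx2, Ddx58 and Bst2 where present, and without Ifi203 and Stat3. The genes described number 35 of the 770 genes on the panel, and Mx2, Ddx58 and Bst2 matched no row used here. By role they were 1 cytosolic RNA sensor (Ifih1), 2 interferon ligands (Ifna1, Ifng), 3 receptor chains (Ifnar1, Ifngr1, Ifngr2), 3 Janus kinases (Jak1, Jak2, Jak3), 2 STATs (Stat2, Stat4), 8 interferon regulatory factors (Irf1, Irf2, Irf3, Irf4, Irf5, Irf7, Irf8, Irf9) and 16 effectors. Of the 35, 33 reached a normalised signal of 20 in 3 or more samples and were tested. Ifng and the guanylate-binding protein gene Gbp2b did not reach this level.

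The animals were 12 female mice of 8 to 10 weeks in 4 groups of 3. KO NTS were Aim2 knockout mice given nephrotoxic serum and analysed at day 9. WT NTS were Aim2 wild-type mice given the same serum and analysed on the same day. KO control and WT control were untreated mice of each genotype. Nephrotoxic serum carries antibodies against the glomerular basement membrane and produces an immune glomerulonephritis, and Aim2 detects DNA in the cytosol and assembles an inflammasome. By the series title the knockouts were B6 and the controls F1 littermate wild types, so strain background and the Aim2 allele cannot be told apart where they differ. The genotype labels were not checked against Aim2 itself, which is not analysed here. Animals are separate mice by the design text, and p-values measure the spread between them.

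Interferons are secreted when a cell senses foreign or misplaced nucleic acid. Type I interferons act through a receptor that contains Ifnar1, and interferon gamma through a receptor built of Ifngr1 and Ifngr2. Both receptors activate Janus kinases, which phosphorylate STAT proteins. A complex of STAT proteins with Irf9 binds the interferon-stimulated response element (ISRE) in front of many effector genes, whereas STAT dimers bind the gamma-activated sequence (GAS). The effectors degrade or sequester viral RNA and mark infected cells, and several are also induced in inflamed kidneys without infection.

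The upstream sequence of 6 of these genes is shown because the results below turn on them and because they differ in the elements that they carry. RefSeq (GRCm38.p6) promoter entries were found by symbol for 32 of the 35 genes, and Ifi27, Mx1 and Oas2 had none in the table. The 250 bases before the annotated start were searched on both strands for an ISRE core written GAAANNGAAA and a GAS core written TTCNNNGAA, and matches within one element may overlap. Capitals mark the matches, and each line runs 5′ to 3′ in the direction of the gene.
Gbp2, chr3:142620413-142620662, strand +: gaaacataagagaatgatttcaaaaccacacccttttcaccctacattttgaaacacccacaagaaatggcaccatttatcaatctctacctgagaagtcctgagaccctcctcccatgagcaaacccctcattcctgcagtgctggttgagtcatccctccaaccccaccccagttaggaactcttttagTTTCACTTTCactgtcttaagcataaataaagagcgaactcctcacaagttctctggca
Isg15, chr4:156200819-156201068, strand -: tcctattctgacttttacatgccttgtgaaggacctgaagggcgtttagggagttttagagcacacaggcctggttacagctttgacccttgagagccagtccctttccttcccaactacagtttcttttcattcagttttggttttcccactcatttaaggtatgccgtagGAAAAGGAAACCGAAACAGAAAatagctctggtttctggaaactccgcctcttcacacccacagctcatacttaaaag
Ifit3, chr19:34583279-34583528, strand +: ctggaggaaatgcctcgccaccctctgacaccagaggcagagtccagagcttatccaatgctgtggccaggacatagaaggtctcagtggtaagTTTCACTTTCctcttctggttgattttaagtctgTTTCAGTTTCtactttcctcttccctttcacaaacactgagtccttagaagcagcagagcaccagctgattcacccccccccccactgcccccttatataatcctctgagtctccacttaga
Oas1a, chr5:120907526-120907775, strand -: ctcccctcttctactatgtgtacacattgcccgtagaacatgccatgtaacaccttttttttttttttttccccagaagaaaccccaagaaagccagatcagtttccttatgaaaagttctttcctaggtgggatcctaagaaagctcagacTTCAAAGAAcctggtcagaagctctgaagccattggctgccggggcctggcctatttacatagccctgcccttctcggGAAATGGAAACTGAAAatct
Irf1, chr11:53769764-53770013, strand +: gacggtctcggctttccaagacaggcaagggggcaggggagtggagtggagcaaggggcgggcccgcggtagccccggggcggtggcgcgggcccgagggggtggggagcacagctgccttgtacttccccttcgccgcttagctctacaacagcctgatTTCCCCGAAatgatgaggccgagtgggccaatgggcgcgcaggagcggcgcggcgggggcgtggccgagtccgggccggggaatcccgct
Ifngr1, chr10:19591699-19591948, strand +: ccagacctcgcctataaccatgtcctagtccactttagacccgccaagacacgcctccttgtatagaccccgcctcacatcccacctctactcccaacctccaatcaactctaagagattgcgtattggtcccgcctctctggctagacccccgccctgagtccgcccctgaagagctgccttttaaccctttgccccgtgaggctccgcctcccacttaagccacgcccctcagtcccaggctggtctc
Gbp2 held 1 ISRE match, Ifit3 held 2, Isg15 held 3 overlapping ones, and Oas1a held 2 overlapping ones and 1 GAS match. Irf1 held 1 GAS match and no ISRE match in this window, and Ifngr1 held neither. Over all RefSeq promoter windows of this length, 2.98% held the ISRE core and 7.02% the GAS core, against 34.2% and 18.4% of the 38 windows of the examined genes. By role, an ISRE match was held by 9 of 13 effectors with a window, 2 of 2 STATs, 1 of 2 ligands, 1 of 8 interferon regulatory factors, 0 of 3 receptor chains, 0 of 3 Janus kinases and 0 of 1 sensor. A match is a description of the letters and not a binding site.

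Signal was scaled by the authors on 20 housekeeping genes, and no gene lay below the geometric mean of its sample's 8 negative controls, a floor of 10.02 to 15.11. WT NTS 1 stood apart from the other WT NTS samples: Spp1, an injury-induced matrix protein, made up 41.5% of the summed endogenous signal there, against 13.3% and 16.8% in WT NTS 2 and WT NTS 3. In KO NTS this share was 51.8% to 54.3%, and in both control groups 6.56% to 9.06%. Tests were run with limma on log2(signal + 1) over all 12 samples and 677 genes, with two-sided p-values adjusted over all 677, and a gene was called at an adjusted p under 0.05. Fold changes are on that scale and understate the change of genes near the floor. Because much of the panel moved one way, the median log2 change of all 677 genes is given beside the counts: it was 0.45 in KO NTS against WT NTS and 0.42 in KO NTS against KO control. With samples centred on the median gene these medians were -0.14 and -0.35, a shift of all genes that takes the examined genes down with it. Scaling was done in 5 ways throughout: the deposited one, the 14 housekeeping genes that passed in no comparison, the positive controls, quantile normalization and centring on the median.

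After serum, all 3 receptor chains, the RNA sensor Ifih1, 4 of 8 interferon regulatory factors and 8 of 15 effectors were higher in knockout than in wild-type kidneys. Of 33 genes tested, 17 were called higher in KO NTS than in WT NTS (51.5%) and 0 lower, and the background over all genes was 31.2% higher and 2.36% lower. The 17 were Ifih1, Ifnar1, Ifngr1, Ifngr2, Jak3, Irf2, Irf4, Irf7, Irf9, Gbp2, Ifi27, Ifi35, Ifit2, Ifit3, Oas1a, Oas2 and Oas3. The median log2 change of the 33 was 0.84, against 0.45 for all genes tested. With median centring 2 were called higher (6.06%, below the 11.4% of all genes) and 1 lower (3.03%; 14.3% of all genes). With quantile normalization 8 were called higher (24.2%; 13.3% of all genes) and 2 lower (6.06%; 14.3% of all genes). The share of these genes called higher was thus above that of all genes with the deposited scaling and with quantile normalization, and not with median centring. The samples of KO NTS lay above all WT NTS samples for 16 genes (48.5%; 39.1% of all genes) and below all of them for 0 (3.4% of all genes). Irf4 and Oas2 were called higher under all 5 scalings. Ifnar1, Jak3, Irf7, Irf9, Ifit2, Ifit3, Oas1a and Oas3 were called higher under 3 of the 5, and Irf2 under 2. Irf4 and Oas3 reached the level for testing only with their KO NTS samples, where they were high. With only these 6 samples in the fit 8 were called. The count was 27 without WT NTS 1, 11 without KO NTS 1, 9 without KO NTS 3, 9 without WT NTS 2 and 10 without WT NTS 3.

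Relative to untreated knockout kidneys, 22 of the 33 genes were called higher in KO NTS (66.7%) and 1 lower, where 39.6% and 8.57% of all genes were. Their median log2 change was 1.0, against 0.42 for all genes tested. Centring on the median gene gave 6 higher (18.2%, near the 19.8% of all genes) and 8 lower (24.2%; 39.7% of all genes). Quantile normalization gave 12 higher (36.4%; 23.5% of all genes) and 7 lower (21.2%; 31.6% of all genes). Irf4, Jak3, Gbp2, Oas1a, Oas2 and Ifngr2 were called higher under all 5 scalings. Irf4 and Oas3, both among the 22, reached the level for testing only with their KO NTS samples. Samples of KO NTS lay above all KO control samples for 25 genes (75.8%), against 51.7% of all genes, and below all of them for Irf5, Gbp3 and Ifna1 (9.09%; 13.9% of all genes). Without KO NTS 3, 15 genes were called in all. The comparisons share the KO NTS samples, so that their calls are not independent.

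**Figure D1:**
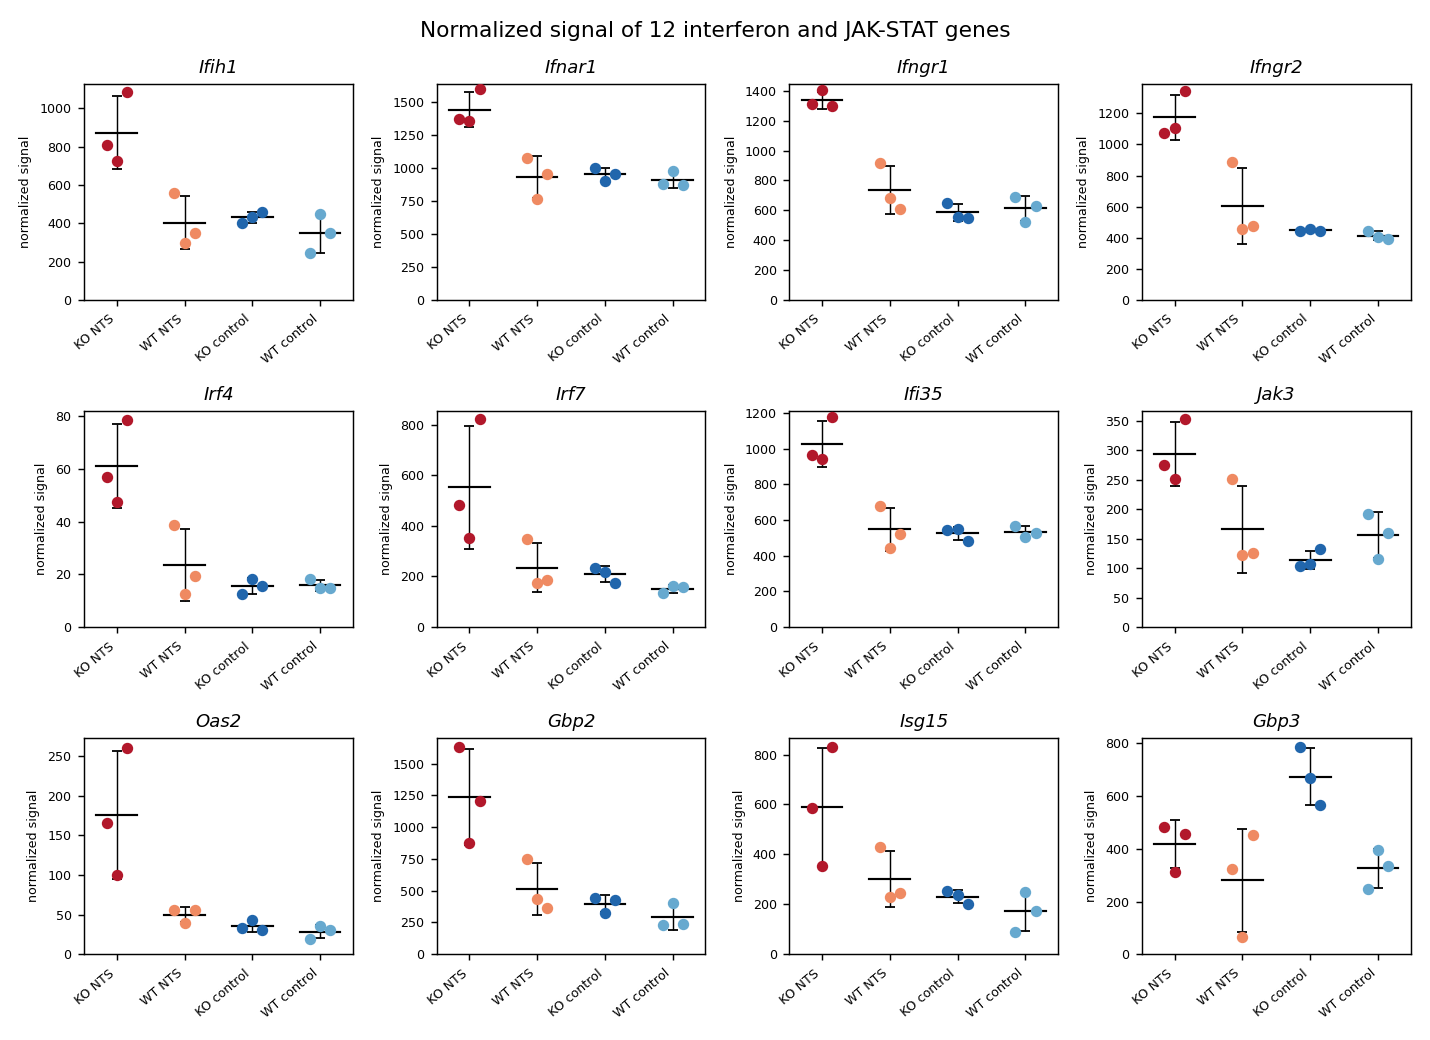
Normalised signal (linear axes from 0) of 12 genes in KO NTS, WT NTS, KO control and WT control kidneys. Points are single animals, and horizontal bars with whiskers are the mean and SD of 3. Ifngr1 and Ifngr2 in KO NTS lie above every other sample, whereas Gbp3 is highest in KO control.

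The cytosolic sensor Ifih1 (MDA5) detects long double-stranded RNA. It read 810.2, 726 and 1087 in KO NTS kidneys, against 561, 298 and 349 in WT NTS kidneys. KO control kidneys had 401, 433 and 461 and WT control kidneys 243, 449 and 349.7. All 3 KO NTS samples lay above every other sample, and WT NTS 1 was the highest of the rest. Ifih1 was 2.22-fold higher in KO NTS than in WT NTS (log2 change 1.15, SE 0.27, adjusted p = 0.0078) and 2.00-fold higher than in KO control (adjusted p = 0.00877). These calls held with each of the 12 samples left out, and they passed in 4 and 3 of 5 scalings.

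The ligands gave little or no signal. Ifng, which encodes interferon gamma, was at the floor in all 12 samples and was not tested. Ifna1, a type I interferon of a family of near-identical genes that may share a probe, read 14.8, 12.9 and 15.1 in KO NTS and 19.4, 11.5 and 17.5 in WT NTS. It read 19.7, 33.5 and 15.6 in KO control and 22.9, 20.2 and 13.6 in WT control, and it was called in 0 of the 5 comparisons with the deposited scaling. Against KO control it was called lower in KO NTS under 2 of the 5 scalings (lowest log2 change -1.36). KO NTS 2 and KO NTS 3 were at the floor for Ifna1, so that its size of change in KO NTS is not measurable. A change of Ifng was not detectable at this level of signal. Low signal of either ligand does not show that the proteins were absent.

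All 3 receptor chains were higher in KO NTS than in the other groups with the deposited scaling. Ifngr1, the ligand-binding chain for interferon gamma, read 1309.7, 1405 and 1301 in KO NTS, against 916, 679.8 and 609 in WT NTS, 653, 554 and 551 in KO control and 691, 519.8 and 628 in WT control. The KO NTS samples did not overlap with any other group, and their spread was small beside the gap to the next sample. Ifngr1 was 1.85-fold higher than in WT NTS (log2 change 0.89, SE 0.17, adjusted p = 0.00505) and 2.29-fold higher than in KO control (adjusted p = 0.000244). Both calls passed in 4 of 5 scalings.

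Ifngr2, the accessory chain that recruits Jak2 to the same receptor, read 1071, 1109 and 1343 in KO NTS, against 886, 456 and 474 in WT NTS. It read 443, 457 and 443 in KO control and 444, 404 and 391 in WT control. Every KO NTS sample exceeded WT NTS 1, which in turn was well above the other WT NTS samples. The rise was 2.02-fold over WT NTS (adjusted p = 0.00668) and 2.61-fold over KO control (adjusted p = 0.000415). The call against KO control held in all 5 scalings and the call against WT NTS in 4.

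Ifnar1, a chain of the type I interferon receptor, read 1372, 1351 and 1594 in KO NTS, against 1071, 761 and 951 in WT NTS. In KO control it read 999.6, 902 and 952, and in WT control 874, 973 and 866. Again the KO NTS samples did not overlap with the rest, but the step was smaller than for the interferon gamma receptor chains. Ifnar1 was 1.56-fold higher than in WT NTS (adjusted p = 0.00741) and 1.51-fold higher than in KO control (adjusted p = 0.00583), a change that was -0.18 on the log2 scale with median centring. Both calls passed in 3 of 5 scalings, and the lowest log2 change against WT NTS was 0.05. The calls of the receptor chains held with each sample left out, and their WT NTS values were not called against WT control (adjusted p = 0.417 for Ifngr1, 0.223 for Ifngr2 and 0.944 for Ifnar1).

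Among the kinases the lymphocyte kinase Jak3, which pairs with the common gamma chain of interleukin receptors, moved most. Jak3 read 275, 250.5 and 354 in KO NTS, against 250.4, 122 and 125 in WT NTS, 104, 107 and 132 in KO control and 192, 115 and 160.2 in WT control. KO NTS 2 and WT NTS 1 were nearly equal, and the other WT NTS samples lay within the range of the controls. Jak3 was 1.85-fold higher in KO NTS than in WT NTS (adjusted p = 0.0355), a call lost without KO NTS 1, KO NTS 3, WT NTS 2, WT NTS 3 or KO control 2 (adjusted p up to 0.137). Against KO control it was 2.54-fold higher (adjusted p = 0.00271), in all 5 scalings, whereas the call against WT NTS passed in 3 of 5.

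Jak1, which serves both interferon receptors, read 1794, 1802 and 2000.3 in KO NTS, against 1689.7, 1497 and 1402 in WT NTS and 1439.7, 1411 and 1507 in KO control. WT control kidneys had 1231, 1569 and 1272. It was called 1.28-fold higher in KO NTS than in KO control (adjusted p = 0.0435), a log2 change of 0.36 that was -0.41 with median centring and below the median change of all genes. That call was lost without KO NTS 1, KO NTS 2, KO NTS 3, KO control 1, KO control 2, KO control 3 or WT control 3 (adjusted p up to 0.132). Jak2, the kinase bound to Ifngr2, ranged from 196 to 382 over the 12 samples. It was called in 0 of the 5 comparisons with the deposited scaling, and lower in KO NTS than in KO control with median centring and quantile normalization (lowest log2 change -0.82).

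Neither STAT was called in any of the 5 comparisons with the deposited scaling and all samples. Stat2, a transcription factor of type I signalling, read 255, 215 and 387 in KO NTS, against 325, 117 and 203 in WT NTS. Its log2 change between these groups was 0.48 (adjusted p = 0.271), or -0.11 with median centring, and WT NTS 1 was above KO NTS 1 and KO NTS 2. In untreated kidneys Stat2 read 159, 150.4 and 186 in KO control and 156, 167 and 129.8 in WT control. KO NTS samples of Stat2 lay above all KO control samples (log2 change 0.75, adjusted p = 0.0791). That change was called in 2 of the 12 fits with a sample left out. Stat4, a factor of T and NK cells, read between the floor and 36.8 over all samples, with all 3 WT controls at the floor. In KO NTS against KO control its log2 change was -0.67 (adjusted p = 0.0801). It was below 0 in all 5 scalings and called lower in 2 of them (lowest log2 change -1.44). Stat4 reached the level for testing only with its KO control samples, where it was highest, and the size is uncertain because of the floor.

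Of the 8 interferon regulatory factors, Irf1, Irf2, Irf4, Irf7 and Irf9 were called higher in KO NTS than in KO control and Irf5 lower, and Irf3 and Irf8 were not called. Irf4, a factor of lymphocytes and some macrophages, read 57, 47.5 and 78.6 in KO NTS, against 38.8, 12.5 and 19.4 in WT NTS. It read 12.5, 18.4 and 15.6 in KO control and 18.1, 14.7 and 14.7 in WT control, with 1 sample of each control group at the floor. Irf4 was 2.73-fold higher than in WT NTS (adjusted p = 0.0089) and 3.72-fold higher than in KO control (adjusted p = 0.000957), both in all 5 scalings and with every sample left out in turn. Closeness of the controls to the floor makes the size of these folds uncertain. Because Irf4 reached the level for testing only with its KO NTS samples, these calls are not independent support for a rise.

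Irf7, the amplifier of type I interferon production, read 484, 352 and 821 in KO NTS, against 346, 174 and 184 in WT NTS, 234, 219.7 and 173 in KO control and 134, 163 and 157 in WT control. KO NTS 3 was far above the other samples, and KO NTS 2 only just exceeded WT NTS 1. Irf7 was 2.32-fold higher in KO NTS than in WT NTS (adjusted p = 0.013), a call lost without KO NTS 3, WT NTS 2 or WT NTS 3 (adjusted p up to 0.0621). Relative to KO control it was 2.50-fold higher (adjusted p = 0.00496).

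Irf9, the DNA-binding part of the complex with Stat2, read 732, 726 and 892 in KO NTS, against 694, 363 and 366 in WT NTS. KO control kidneys read 422, 345 and 335 and WT control kidneys 274, 352 and 359. WT NTS 1 nearly reached the KO NTS level, whereas WT NTS 2 and WT NTS 3 stayed near the controls. The difference was 1.72-fold against WT NTS (adjusted p = 0.0252), lost without KO NTS 1, KO NTS 3, WT NTS 2 or WT NTS 3 (adjusted p up to 0.106), and 2.13-fold against KO control (adjusted p = 0.00281).

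Irf1, an early interferon-induced factor and an activator of antigen presentation genes, read 785, 494 and 829 in KO NTS, against 645, 271 and 344 in WT NTS, 361, 278 and 344 in KO control and 268, 370.3 and 287 in WT control. WT NTS 1 lay between the KO NTS samples. Irf1 was 2.10-fold higher in KO NTS than in KO control (adjusted p = 0.0112) and had a log2 change of 0.80 against WT NTS (adjusted p = 0.0573). Irf1 and Oas1a are the genes with a GAS match among those shown above.

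Irf2, a factor that competes with Irf1 for its sites, read 501, 375 and 461 in KO NTS, against 339.7, 268 and 299.7 in WT NTS. KO control kidneys had 305, 317 and 354 and WT control kidneys 294, 336 and 334. Irf2 was called 1.47-fold higher than in WT NTS (adjusted p = 0.0217) and 1.36-fold higher than in KO control (adjusted p = 0.0386). Its log2 changes of 0.55 and 0.45 were close to the median of all genes and turned to -0.04 and -0.33 with median centring. The first call was lost without KO NTS 1, KO NTS 3, WT NTS 2 or WT NTS 3 (adjusted p up to 0.0868), and the second without KO NTS 1, KO NTS 3, KO control 1, KO control 2, KO control 3 or WT control 3 (adjusted p up to 0.141).

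Irf5, a factor of macrophages and B cells that drives inflammatory cytokines, went the other way. Irf5 read 359.9, 343 and 362 in KO NTS and 651, 569 and 456 in KO control, a log2 change of -0.64 (adjusted p = 0.046), and the groups did not overlap. It was below 0 in all 5 scalings. The call was lost without KO NTS 1, KO NTS 2, KO NTS 3, WT NTS 3, KO control 1, KO control 2 or WT control 2 (adjusted p up to 0.152). Against WT NTS its log2 change was 0.05 (adjusted p = 0.879), or -0.59 and called lower with quantile normalization. In WT NTS it read 466, 250.2 and 342 and in WT control 331, 389 and 541.

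Irf3, the factor that cytosolic sensors activate by phosphorylation and not by transcription, ranged from 645 to 803 over all 12 samples. KO NTS 1 and KO NTS 2 lay below all WT NTS samples, at 688 and 645 against 746 to 803, while KO NTS 3 fell inside that range. It was called in 0 comparisons with the deposited scaling, and lower in KO NTS with median centring and quantile normalization, against WT NTS (lowest log2 change -0.75) and against KO control (-0.79). Irf8, a factor of monocytes and dendritic cells, read 239.9, 202 and 241 in KO NTS, against 255, 89.7 and 144 in WT NTS, 198, 169 and 211 in KO control and 79.3, 189 and 88 in WT control, and was called in 0 comparisons. WT NTS 1 had the highest Irf8 signal of all samples.

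**Figure D2:**
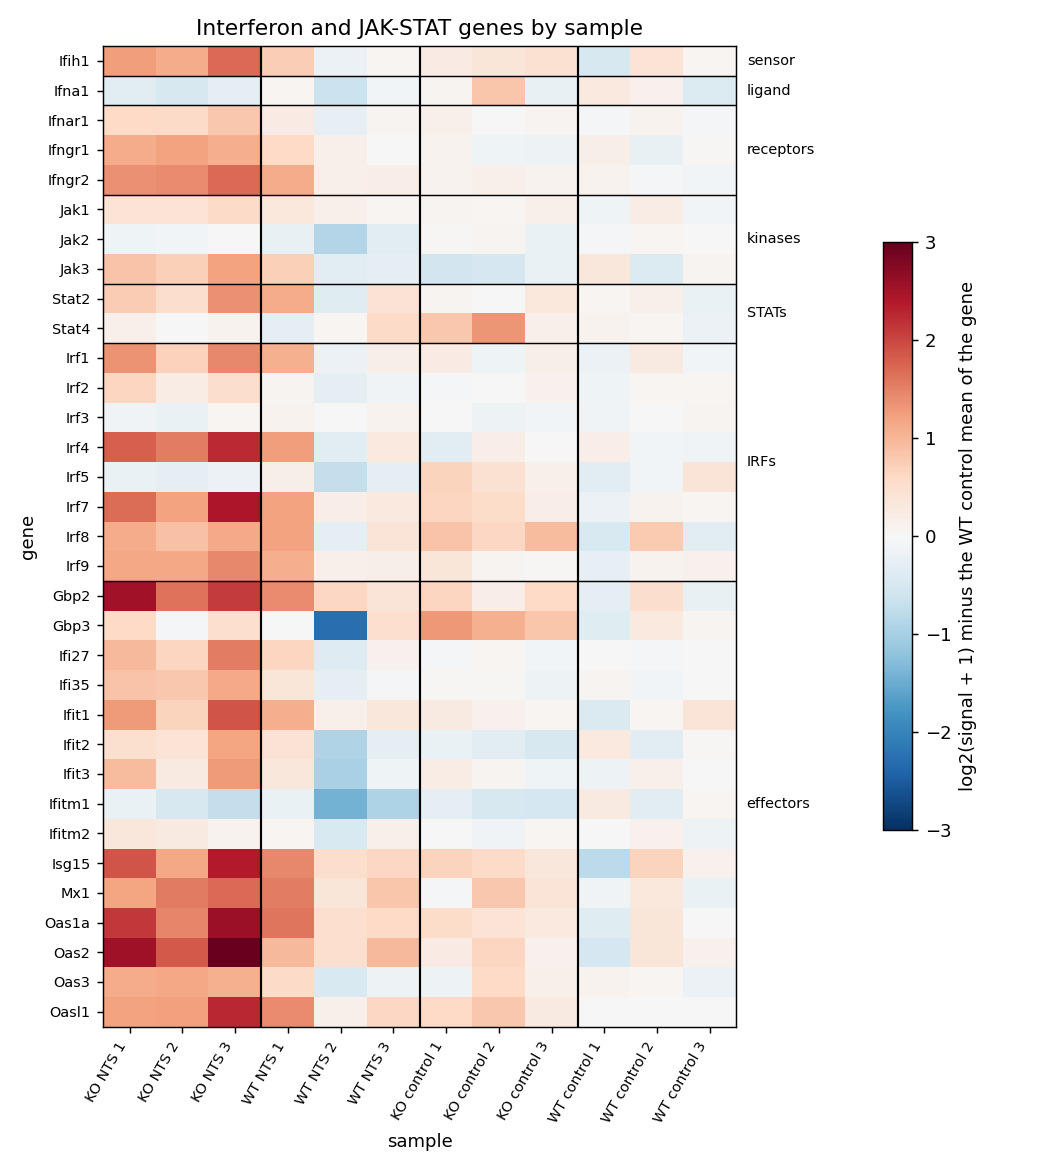
Log2(signal + 1) of the 33 genes tested in each of the 12 samples, minus the mean of the gene in WT control; rows are ordered by role and columns by group, red is above and blue below WT control. The Oas1a, Oas2, Isg15, Gbp2, Irf4 and Irf7 rows are among the reddest in KO NTS, and WT NTS 1 is redder than WT NTS 2 and WT NTS 3.

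Of 15 effectors tested, 8 were called higher in KO NTS than in WT NTS (31.2% of all genes) and 11 than in KO control (39.6% of all genes). The oligoadenylate synthetases, which sense double-stranded RNA and activate RNase L, held the largest change against WT NTS among the 33 genes. Oas2 read 165, 100.4 and 261 in KO NTS, against 55.3, 39.6 and 55.3 in WT NTS, 32.9, 43.3 and 30.1 in KO control and 19.1, 35.7 and 30.4 in WT control. Every KO NTS sample exceeded every other sample, and WT NTS 1 did not stand out among WT NTS for this gene. Oas2 was 3.25-fold higher than in WT NTS (log2 change 1.70, SE 0.35, adjusted p = 0.00577) and 4.56-fold higher than in KO control (adjusted p = 0.000394). Both calls held in all 5 scalings and with each sample left out.

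Oas1a, which carries the ISRE matches close to its start shown above, read 375, 236 and 514 in KO NTS, against 262, 121 and 129 in WT NTS. Control kidneys had 126, 114 and 105 in KO control and 65.9, 109.9 and 85.9 in WT control. KO NTS 2 lay below WT NTS 1. The difference was 2.23-fold against WT NTS (adjusted p = 0.0225), called in 3 of 5 scalings. That call was lost without KO NTS 1, KO NTS 3, WT NTS 2 or WT NTS 3 (adjusted p up to 0.102). Against KO control the difference was 3.10-fold (adjusted p = 0.00204), in all 5 scalings.

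Oas3 was near the floor, with 31.5, 32.4 and 30.7 in KO NTS, against 21.4, 10 and 12.6 in WT NTS and 12.5, 21.6 and 15.6 in KO control, and all 3 WT controls were at the floor. It was called higher in KO NTS than in WT NTS (log2 change 1.12, adjusted p = 0.00902) and than in KO control (log2 change 0.92, adjusted p = 0.0147), the second call being lost without KO control 1 (adjusted p = 0.0642). The sizes are uncertain because of the floor, and Oas3 reached the level for testing only with its KO NTS samples. Oasl1, an Oas-like protein that restrains Irf7 translation in mice, read 72.8, 74.5 and 153 in KO NTS, against 84.4, 34.4 and 48.5 in WT NTS, 47.1, 55.2 and 37.4 in KO control and 30.6, 30.9 and 31.4 in WT control. It was 2.02-fold higher in KO NTS than in KO control (adjusted p = 0.0315), lost without KO NTS 3, KO control 1 or KO control 3 (adjusted p up to 0.147), and missed against WT NTS (log2 change 0.84, adjusted p = 0.0853).

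Gbp2, a guanylate-binding protein that attacks the vacuoles of intracellular microbes, read 1630.3, 877 and 1206 in KO NTS, against 750.2, 432 and 367 in WT NTS, 443, 322 and 427 in KO control and 229, 407 and 239.8 in WT control. KO NTS did not overlap with any other group, and KO NTS 1 was highest. Gbp2 was 2.44-fold higher than in WT NTS (adjusted p = 0.00902) and 3.04-fold higher than in KO control (adjusted p = 0.00136), with each sample left out as well. Its relative Gbp3 read 483, 313 and 457 in KO NTS, against 323, 65.7 and 451 in WT NTS, 785, 668 and 568 in KO control and 246, 394 and 336 in WT control. All KO control samples exceeded all other samples for Gbp3, and WT NTS 2 was far below the rest. The log2 change of Gbp3 was 0.94 in KO NTS against WT NTS (adjusted p = 0.192), above 0 in all 5 scalings and called in none of them. Against KO control it was -0.70 (adjusted p = 0.304), and it was called lower there with median centring (-1.47, adjusted p = 0.0135), with quantile normalization (-1.34, adjusted p = 0.0305), with only the compared groups in the fit (adjusted p = 0.0134) and without WT NTS 2 (adjusted p = 0.0267). It was 1.06 in KO control against WT control (adjusted p = 0.618). Gbp2b, another relative, was at the floor in 11 samples and read 16.4 in WT control 2.

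The interferon-induced tetratricopeptide proteins bind foreign RNA and block its translation. Ifit3 read 1325, 830.3 and 1672 in KO NTS, against 875, 353 and 628 in WT NTS, 809, 728 and 632 in KO control and 620.0, 772 and 688 in WT control. All untreated samples lay below WT NTS 1 and above WT NTS 2, and KO NTS 2 lay below WT NTS 1. The difference from WT NTS was 2.11-fold (adjusted p = 0.0204), lost without KO NTS 1, KO NTS 3 or WT NTS 2 (adjusted p up to 0.0913).

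Ifit2 read 543, 516 and 888 in KO NTS, against 520.2, 209 and 316 in WT NTS, 336, 308 and 278 in KO control and 474, 311 and 397 in WT control. Ifit2 was 1.93-fold higher in KO NTS than in WT NTS (adjusted p = 0.0339), lost without KO NTS 1, KO NTS 3, WT NTS 2 or WT NTS 3 (adjusted p up to 0.146). Against KO control it was 2.05-fold higher (adjusted p = 0.0155), lost without KO NTS 3 or KO control 3 (adjusted p up to 0.0747). For Ifit2 and Ifit3 alike, WT NTS 2 was the lowest of all 12 samples. Ifit1 read 158, 103 and 239 in KO NTS, against 138, 72 and 81.5 in WT NTS, 77.7, 70.3 and 66.5 in KO control and 47.8, 66.5 and 83.8 in WT control. It was 2.18-fold higher than in KO control (adjusted p = 0.0156), lost without KO NTS 3 (adjusted p = 0.0769), and its log2 change against WT NTS was 0.75 (adjusted p = 0.108).

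Isg15, a ubiquitin-like modifier and the gene with 3 overlapping ISRE matches, read 584, 355 and 829 in KO NTS, against 429, 229 and 244 in WT NTS. Control kidneys read 252, 236 and 201 in KO control and 90.8, 249.8 and 174 in WT control. KO NTS 2 lay below WT NTS 1, and WT control 1 was the lowest sample. Isg15 was 2.43-fold higher in KO NTS than in KO control (adjusted p = 0.0161), lost without KO NTS 3 or KO control 3 (adjusted p up to 0.0766), and its log2 change against WT NTS was 0.94 (adjusted p = 0.0792).

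Mx1, a dynamin-like antiviral GTPase, read 85.5, 111 and 124 in KO NTS, against 111, 48 and 66.9 in WT NTS, 36.1, 66 and 48.9 in KO control and 34.4, 46.3 and 32.5 in WT control. WT NTS 1 was as high as KO NTS 2. Mx1 was 2.14-fold higher in KO NTS than in KO control (adjusted p = 0.0149), lost without KO NTS 3 or KO control 1 (adjusted p up to 0.0688). Its log2 change against WT NTS was 0.57 (adjusted p = 0.194) and -0.02 with median centring.

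Ifi35, an interferon-induced regulator of innate signalling, read 963, 941 and 1176 in KO NTS, against 681, 441 and 522 in WT NTS, 544, 549.7 and 482 in KO control and 567, 506 and 529 in WT control. KO NTS did not overlap with any other group. Ifi35 was 1.89-fold higher than in WT NTS (adjusted p = 0.005) and 1.95-fold higher than in KO control (adjusted p = 0.000799), also with each sample left out. Ifi27, an interferon-induced membrane protein, read 3415, 2728 and 5048 in KO NTS, against 2716, 1343 and 1906 in WT NTS, 1676, 1833 and 1662 in KO control and 1772, 1717 and 1765 in WT control. The KO control and WT control samples of Ifi27 were nearly equal, and KO NTS 3 was the highest sample. Ifi27 was 1.89-fold higher than in WT NTS (adjusted p = 0.0156), lost without KO NTS 3, WT NTS 2 or WT NTS 3 (adjusted p up to 0.0732), and 2.10-fold higher than in KO control (adjusted p = 0.00414).

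The membrane proteins that block viral entry were not called with the deposited scaling. Ifitm2 ranged from 2275 to 3961 over the 12 samples. It was called in 0 comparisons with the deposited scaling, and lower in KO NTS than in KO control with median centring (log2 change -0.50). Ifitm1 read 272, 226 and 189.9 in KO NTS, against 274, 116 and 165 in WT NTS, 254, 224 and 218 in KO control and 379, 246 and 328 in WT control. It had the smallest p of the 33 genes in WT NTS against WT control (limma, log2 change -0.85, adjusted p = 0.097), and was called lower there with median centring, with quantile normalization, without WT NTS 1 and without WT control 2 (adjusted p from 0.0216 to 0.271 with 1 sample left out). Against KO control it was called lower in KO NTS with median centring and quantile normalization (lowest log2 change -0.80, against -0.03 with the deposited scaling).

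**Figure D3:**
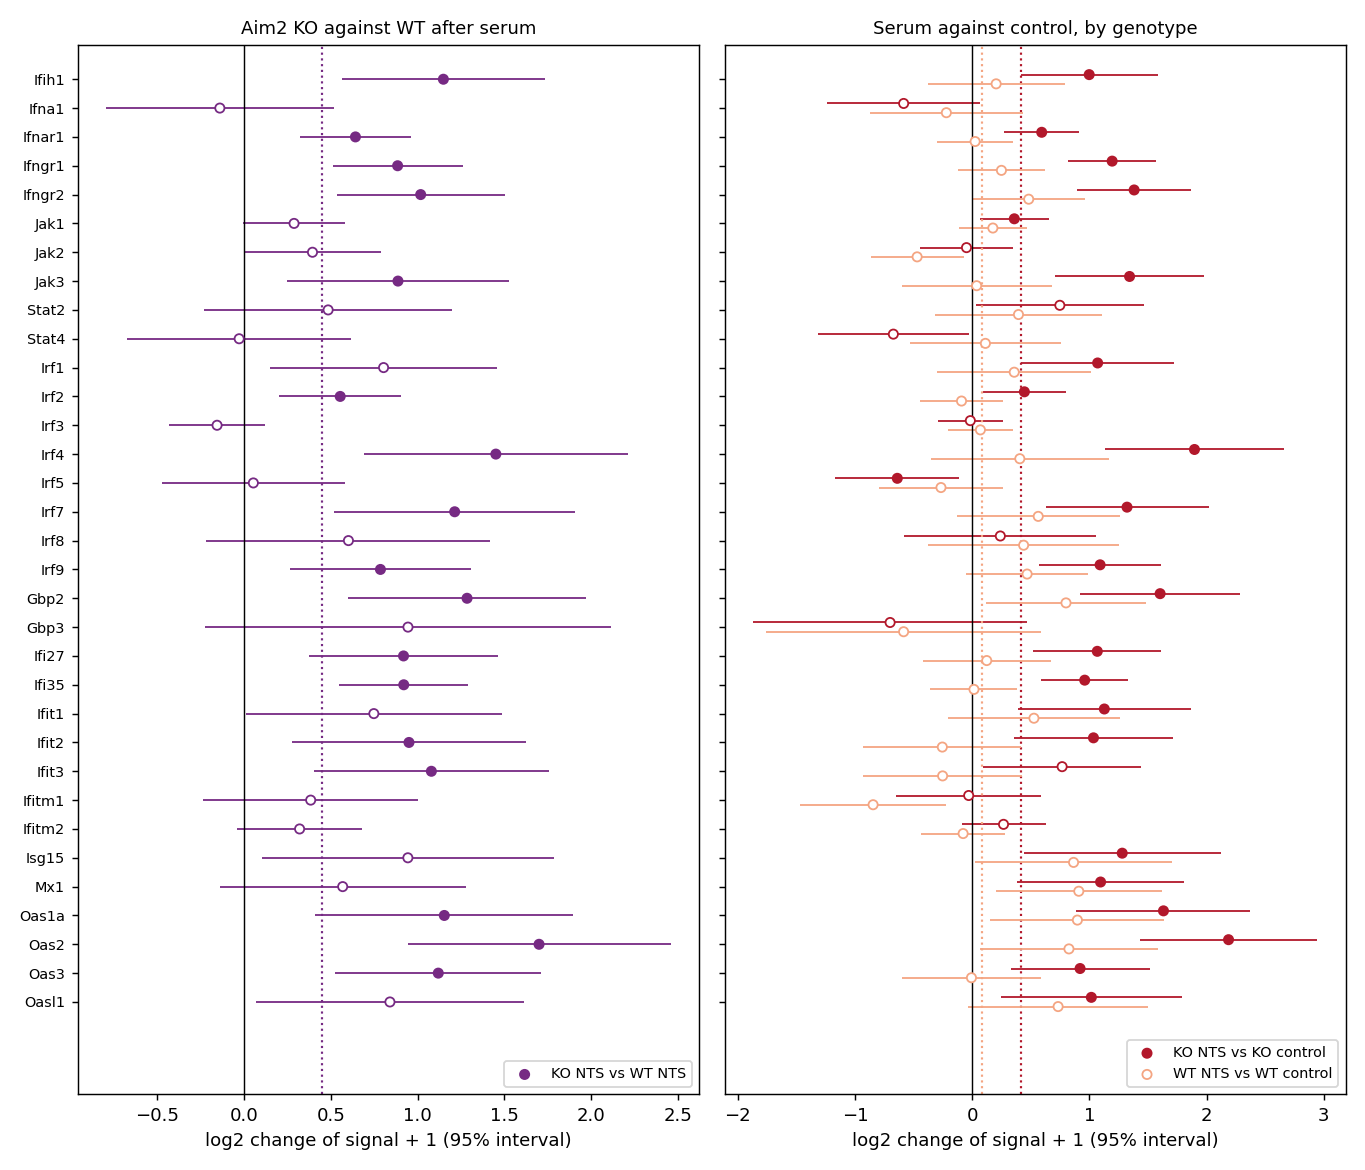
Log2 change of signal + 1 with its 95% interval for the 33 genes tested, by role; left, KO NTS against WT NTS, and right, NTS against control in each genotype. Filled points have an adjusted p under 0.05, and dotted lines mark the median of all 677 genes (0.45 on the left; 0.42 for KO and 0.08 for WT on the right).

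In wild-type kidneys 0 of the 33 genes were called after serum with limma, against 5.47% of all genes called higher and 2.51% called lower. The unadjusted p was under 0.05 for 7 of the 33 (22.5% of all genes). WT NTS samples lay above all WT control samples for 7 genes (21.2%; 12.6% of all genes): Irf7, Irf9, Ifngr2, Mx1, Oas1a, Oas2 and Oasl1. They lay below all WT controls for Jak2 (3.03%; 7.24% of all genes). Without WT NTS 2, Mx1 was called higher, and without WT control 2, Gbp2 was.

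Between untreated kidneys 0 of the 33 genes and 0.0% of all 677 genes were called with limma, and 1 of the 33 had an unadjusted p under 0.05 (Stat4, close to the floor), where 8.42% of all genes did. KO control samples lay above all WT control samples for Gbp3, Irf7, Oasl1 and Stat4 (12.1%; 7.09% of all genes), and below all of them for 0 (4.58% of all genes). Stat4 reached the level for testing only with its KO control samples, and all 3 WT controls were at the floor. These results for Stat4 are therefore not support for a difference.

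Whether the serum response itself differed by genotype was tested as the difference between the changes in KO and in WT. This interaction was called for Ifi35 (log2 difference 0.94, SE 0.24, adjusted p = 0.0356) and Ifngr1 (0.94, SE 0.24, adjusted p = 0.0356), 2 of 33 genes (6.06%) against a background of 9.6% higher and 0.739% lower. An unadjusted p under 0.05 was found for 12 of the 33, and for 28.7% of all genes. For Irf4, Oas2, Jak3 and Ifit2 the interaction was 1.49, 1.36, 1.30 and 1.29 (adjusted p = 0.0733, 0.0905, 0.0669 and 0.078). Without WT NTS 1 the count was 14, among them the 3 receptor chains, Ifih1, Irf1, Irf4 and Irf9. Leaving out KO NTS 1, KO NTS 3, WT NTS 2, WT NTS 3, any KO control, WT control 1 or WT control 3 gave 0, without KO NTS 2 the genes were Ifi35 and Oas2, and without WT control 2 they were Ifi35, Ifngr1 and Jak3.

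Animals within a treated group differed along a common order. KO NTS 3 held the highest signal of its group for 25 of the 33 genes (75.8%) and KO NTS 2 the lowest for 24 (72.7%), whereas these samples held the highest and lowest values of 44.6% and 47.9% of all genes. In WT NTS, WT NTS 1 was highest for 29 of 33 genes (87.9%) and WT NTS 2 lowest for 29 (87.9%), against 62.9% and 65.7% of all genes. The mean log2 level of the 15 effectors relative to WT control was 1.19, 0.84 and 1.48 in KO NTS 1, 2 and 3, against 0.78, -0.29 and 0.24 in WT NTS 1, 2 and 3. Receptor chains were more even within KO NTS (1.03, 1.07 and 1.2), against 0.65, 0.02 and 0.09 in WT NTS. Over all 677 genes the means were 0.72, 0.59 and 0.7 in KO NTS 1, 2 and 3, against 0.45, -0.11 and 0.13 in WT NTS 1, 2 and 3, so that this mean too was higher in each KO NTS than in each WT NTS sample, in the same order within WT NTS. The effector mean of WT NTS 1 was thus close to that of KO NTS 2.

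Other genes of these pathways that the naming rule does not cover were taken from a list of 51, of which 27 were on the panel and tested. In KO NTS against WT NTS 18 of the 27 were called higher and 0 lower, where 31.2% and 2.36% of all genes were. Against KO control 18 were higher and 1 lower, where 39.6% and 8.57% of all genes were. The 1 called lower was Rsad2 (log2 change -0.63, adjusted p = 0.0248), and its log2 change against WT NTS was -0.30 (adjusted p = 0.278). In WT NTS against WT control 2 were higher (5.47% of all genes), in untreated kidneys 0 were called, and 5 were higher in the interaction (9.6% of all genes). The 4 with the smallest p in KO NTS against WT NTS were the MHC class I heavy chains H2-D1 and H2-K1, the DNA-sensing adaptor Tmem173 (Sting1) and the RNA receptor Tlr7. H2-D1 read 7931, 7206 and 8962 in KO NTS, against 5377, 3779.7 and 3533 in WT NTS (1.92-fold, adjusted p = 0.005). H2-K1 read 6691, 6119.6 and 8532 in KO NTS, against 4671, 2653 and 2783 in WT NTS (2.16-fold). Tmem173 was 2.98-fold and Tlr7 2.46-fold higher.

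Macrophage markers had a higher summed signal in KO NTS than in the other groups. Most tested markers of other immune cells were not called in KO NTS against WT NTS. The summed signal of 10 macrophage markers was 6332 to 8112 in KO NTS, against 1964 to 4301 in WT NTS. It was 1945 to 2149 in KO control and 1568 to 2011 in WT control. Of the 10, 9 were called higher in KO NTS than in WT NTS (31.2% of all genes) and 8 than in KO control (39.6% of all genes). In WT NTS against WT control 3 were called higher (5.47% of all genes), where 0 of the 33 genes examined were. T cell markers summed to 167 to 239 in KO NTS and 146 to 232 in WT NTS, with 1 of 6 tested called, and NK cell markers to 180 to 225 and 145 to 203, with 0 of 5 called and Prf1 at the floor in both groups. Neutrophil markers summed to 250 to 361 in KO NTS, against 122 to 264 in WT NTS, with 0 of 3 called there and 3 of 3 called higher against KO control (95 to 157). The 2 plasmacytoid dendritic cell markers on the panel, Irf7 (itself one of the genes described) and Tlr9, summed to 418 to 922 in KO NTS, against 204 to 414 in WT NTS, 216 to 289 in KO control and 162 to 202 in WT control. The 1 called higher in both KO NTS comparisons was Irf7. Tlr9 was not called against WT NTS (adjusted p = 0.072) or KO control (adjusted p = 0.0968). B cell markers summed to 91 to 106 in KO NTS and 83 to 89 in WT NTS, and the 4 endothelial markers to 2447 to 4284 in KO NTS and 3702 to 4962 in WT NTS, with 1 called higher and 1 lower. The 2 tubule markers on the panel fell to 9501 to 17046 in KO NTS, against 34343 to 48235 in WT NTS. In whole kidney, more cells of a type and more RNA per cell cannot be told apart, and the part of these markers in the interferon results was not tested.

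**Figure D4:**
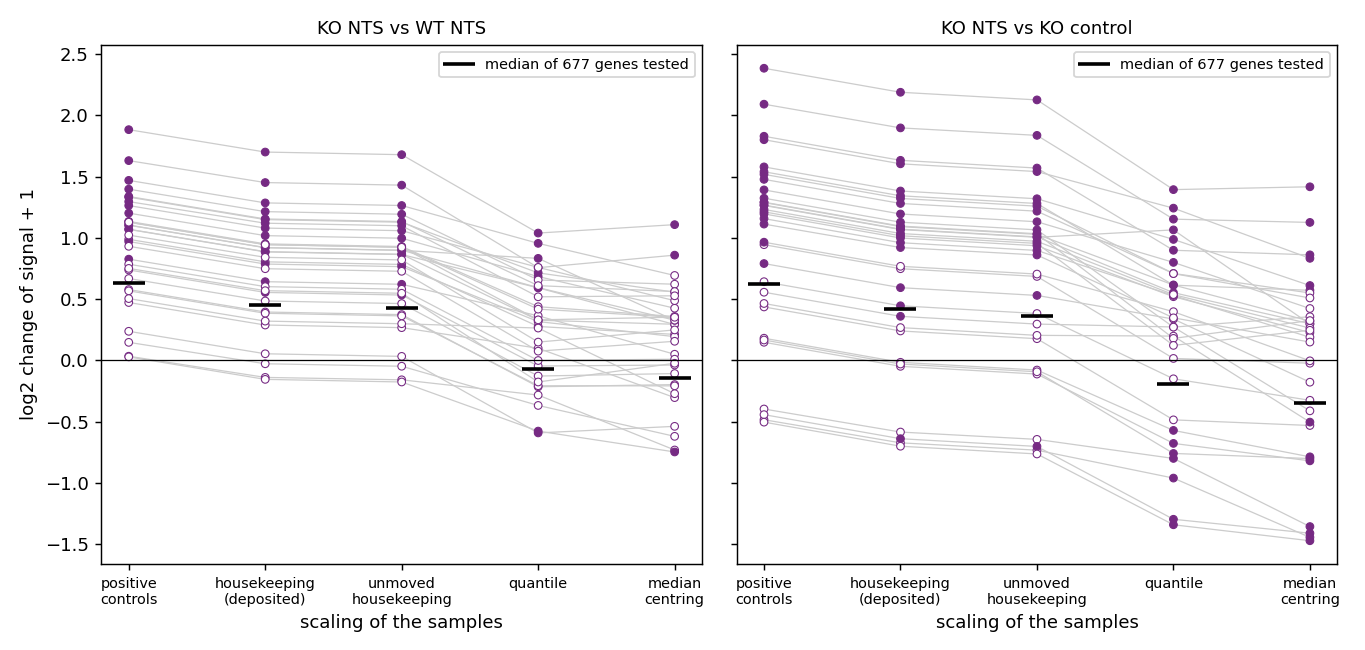
Log2 change of signal + 1 of the 33 genes (purple; filled where the adjusted p is under 0.05, joined by grey lines) under 5 scalings of the samples, with the median of all 677 genes as black bars. The whole panel shifts down from positive control scaling (median 0.63 in KO NTS against WT NTS) to median centring (-0.14).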

How the data were processed

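Total kidney RNA came from a column extraction, per the labels' protocols, and the sources used here do not give the instrument or its software. The authors deposited a normalised signal per gene, with 750 endogenous and 20 housekeeping genes, 8 negative and 6 positive controls, per the file headers. Housekeeping genes had a geometric mean of 380.1 to 384.2 per sample, and signals over the floor were multiples of a step of 0.955 to 1.09 in 100% of cases under 2000 (tolerance 0.05 signal units), so these are scaled probe counts and not raw ones. The deposited percent of samples above a threshold was not used, the other deposited table was identical (largest difference 0), and 0 columns were left over. Depth is unknown, since sums follow the scaling, and the number of samples limits precision.

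Tests used limma 3.58.1 in R 4.3.3 (1 mean per group, 12 samples, variance trend, Benjamini-Hochberg over 677 genes, threshold 0.05). The steps were tested on simulated data. Every gene described was named, with values in every sample for those called in any comparison and for the receptor chains, kinases and regulatory factors where they add to these. Of the other pathway genes the 4 with the smallest p and the 1 called lower were named. Genes and lists were chosen with earlier results of these data known, and no list is an independent test. The alternatives were another pseudocount (16), no filter, 4 other scalings, a block for replicate number, a fit on the compared groups alone, no variance trend and each sample left out. Accessions of 34 of 35 genes matched RefSeq. The fit and the adjustment cover the whole panel, and 1 gene that the naming rule takes in is not reported here. Each gene was read by 1 probe, and relatives (Gbp, Ifit, Oas, Ifna) may share signal.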

Additional observations from a re-analysis of the deposited data

Results flagged for a closer look

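The serum response of Ifi35 and Ifngr1 differed between genotypes by a test of the difference itself (limma interaction). For Ifi35 the log2 interaction was 0.94 (adjusted p = 0.0356, from 0.00279 to 0.0927 with 1 sample left out), and all 3 KO NTS samples lay above all KO controls, whereas WT NTS and WT control samples overlapped. For Ifngr1 it was 0.94 (adjusted p = 0.0356, from 0.00292 to 0.0968). Both interactions stayed above 0 in the 5 scalings. They were called with the deposited scaling and with the unmoved housekeeping genes, and in no other. Those housekeeping genes were picked by the calls under the deposited scaling, so the 2 scalings are not independent. With 1 sample left out the call held in 3 of 12 fits for Ifi35 and 2 of 12 for Ifngr1. The share called higher was 6.06% of the 33 genes, below the 9.6% of all genes.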

How the results depend on the processing

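Counts of called genes depended on the scaling and on single samples. With median centring 3 of the 33 genes were called in KO NTS against WT NTS (2 higher, 1 lower) and 14 in KO NTS against KO control (6 higher, 8 lower). In WT NTS against WT control 2 were called, both lower, and in the interaction 0 were. Quantile normalization gave 10 (8 higher, 2 lower), 19 (12 higher, 7 lower), 1 (lower) and 1 (lower) for the same comparisons. Its 1 interaction call was Irf5, opposite in direction to the 2 called higher with the deposited scaling. In KO NTS against WT NTS, 8 genes were called with only the compared groups in the fit. The interaction count was 0 with positive control scaling and 0 without the variance trend. Leaving out 1 sample gave 9 to 27 genes in KO NTS against WT NTS, 15 to 26 in KO NTS against KO control, 0 to 2 in WT NTS against WT control, 0 to 0 in untreated kidneys and 0 to 14 in the interaction. The pseudocount of 16, no filter and the unmoved housekeeping genes kept every count within 1.5 times.

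Among 52 single results (the genes called, and those named with a near miss), directions turned for 6 with median centring and 4 with quantile normalization, and 0 of these were called in the new direction. Over all 33 genes the sign was not the same in all 5 scalings for 12 in KO NTS against WT NTS, where Irf3 and Irf5 were called lower in at least 1 scaling, and for 10 in KO NTS against KO control, where Irf3, Jak2, Ifitm1 and Ifitm2 were. With median centring the log2 change in KO NTS against KO control was -0.18 for Ifnar1, -0.33 for Irf2 and -0.41 for Jak1, and in KO NTS against WT NTS it was -0.04 for Irf2, -0.02 for Mx1 and -0.11 for Stat2. With quantile normalization Irf2 was at -0.15 in KO NTS against KO control, and in KO NTS against WT NTS Irf2 was at -0.05, Mx1 at -0.18 and Stat2 at -0.13. The cause was not tested. Of the 52 single results, 49 kept their call with the replicate block, which gave 17, 20, 0, 0 and 2 called genes in the 5 comparisons. Same-numbered samples correlated at -0.298 to 0.395 in their deviations from the group means, so the numbers were not taken to pair the animals. Genes near the floor (Ifna1, Ifng, Irf4, Oas3, Stat4, Gbp2b) have uncertain fold changes.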

Other observations

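The ISRE letters did not separate the genes called higher from the others. In KO NTS against WT NTS, 5 of 15 called genes with a promoter window and 7 of 15 others held a match, and in KO NTS against KO control 6 of 19 called genes and 6 of 11 others did. GAS matches were found in 3 of 15 called genes and 3 of 15 others in KO NTS against WT NTS, and in 4 of 19 and 2 of 11 in KO NTS against KO control. These shares are descriptions without a test.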
